A study of Mus musculus with 32 samples.

Results

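The features shared by Scnn and VIP cortex are 27 of the 56459 features for which ribosome-associated RNA was counted in mouse forebrain neurons. A member had a level of at least 1 CPM (counts scaled to a library total of 1000000) in all 8 Scnn and VIP libraries. The lower of its Scnn and VIP means was at least 3 times each of the 6 other group means, and the Scnn and VIP means were less than 2-fold apart. The study sequenced 32 libraries in 8 groups of 4: Scnn, VIP, PV, SST and CamK neurons of the cortex, and SST, Grik and CamK neurons of the hippocampus. All groups are labelled wild type. Age, sex, the promoter that marks each population and the number of animals behind a library were not stated in the labels used here. Replicates are separate samples in the labels, and nothing there says that they came from separate animals, so p-values measure only the spread between these samples, which may be technical.

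From general knowledge and not from the labels, Scnn names excitatory (glutamatergic) neurons enriched in layer 4 of the cortex, which receives input from the thalamus. VIP names inhibitory (GABAergic) interneurons that make vasoactive intestinal peptide and act largely on other interneurons. Both classes occur in the same cortical tissue but use opposite transmitters, and RNA bound to ribosomes is commonly read as a measure of what a cell class translates. The features carry identifiers without gene names, and none of these identifiers occurred in the reference tables, so no member can be given a gene name, a role, a position or a sequence. For the same reason no marker gene, of the labelled population or of another cell type, could be looked up. In bulk samples fewer cells of a type and less RNA per cell cannot be told apart.

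Library totals ran from 100158438 to 114153919 counts, except SST hippocampus replicate 1 with 186505391. Scnn replicate 2 stood apart from the other Scnn libraries. A pair of very abundant features that are not members, GSMG0038934 and GSMG0023431, took 13.0% of its counts. They took 2.56% to 6.78% in the other Scnn libraries. Many of the members were also highest in that library, and results that rest on it are given with and without it.

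Of the 13235 features at 1 CPM or more in all 8 Scnn and VIP libraries, 36 had both means at least 3 times each other mean. Of these, 27 had Scnn and VIP means less than 2-fold apart. The remaining 9 were 7 features higher in VIP and 2 higher in Scnn. The values that chose the members are given as a description and carry no test. The lower of the Scnn and VIP means ranged from 1.55 to 687 CPM with a median of 6.52 CPM. It was under 3 CPM for 8 members, 3 to under 10 CPM for 9, 10 to under 100 CPM for 6 and above that for 4. Most members were thus scarce, and a few were abundant.

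The ratio of that lower mean to the highest other mean ran from 3.12 to 5.50 with a median of 3.60. It was under 4 for 18 members and 5 or more for 3, so most lay close to the limit. GSMG0007305 lay just inside at a ratio of 3.12, and GSMG0026635, which is no member, lay just outside at 2.97. The Scnn mean was above the VIP mean for 9 members and below it for 18, with a median Scnn to VIP ratio of 0.783. All 4 VIP libraries lay above all 24 libraries of the other groups for 27 of 27 members (background 13.6% of the 24555 features tested). All 4 Scnn libraries did so for 18 of 27 (background 3.59%). The rule used these levels, so nothing is read from either count.

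**Figure D1:**
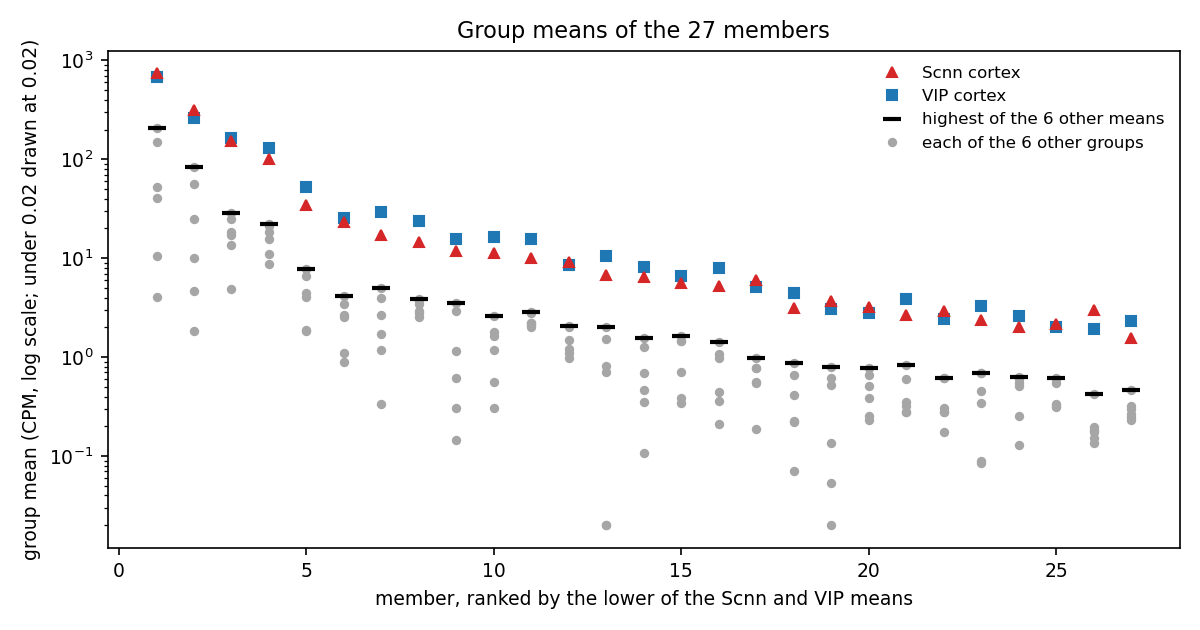
Group mean level (CPM, log scale) of each of the 27 members, ranked by the lower of the Scnn and VIP means. Triangles are Scnn cortex, squares VIP cortex, grey points the 6 other groups and bars the highest of these. The ratio of the lower mean to the bar runs from 3.12 to 5.50.

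The members were not equally low in the 6 other groups, which the rule bounds only from above. The highest of these 6 means was in PV cortex for 16 members, SST hippocampus for 7, CamK cortex for 2, and Grik hippocampus and SST cortex for 1 each. The lowest was in CamK hippocampus for 14 members, Grik hippocampus for 11 and CamK cortex for 2. A mean of 1 CPM or more was reached by 15 members in PV cortex, 16 in SST hippocampus, 13 in SST cortex, 10 in Grik hippocampus, 7 in CamK hippocampus and 12 in CamK cortex. In 11 members all 6 other means were under 1 CPM. Outside Scnn and VIP cortex, the hippocampal excitatory groups therefore held most of the lowest means, and PV cortex and SST hippocampus most of the highest. No share over all features is given beside these counts, so they only describe.

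Within Scnn cortex the members leaned on 1 library. Scnn replicate 2 was the highest Scnn library for 22 of 27 members (81.5%), against 14.7% of all features at 1 CPM or more in the 8 Scnn and VIP libraries. Its level was a median of 1.67 times the mean of the other 3 Scnn libraries over the members, against 0.908 over those features. The members fell into separate ranges on this measure. For 9 members the factor was 5.20 to 14.3, and for the other 18 it was 0.481 to 2.32. A limit of 5-fold between these ranges was set after the values were seen and is used only to describe them. With the rule applied without Scnn replicate 2, 12 features met it, all of them among the 27. None of the 9 members was kept, nor were the most abundant 2, while 12 of the remaining 16 were.

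**Figure D2:**
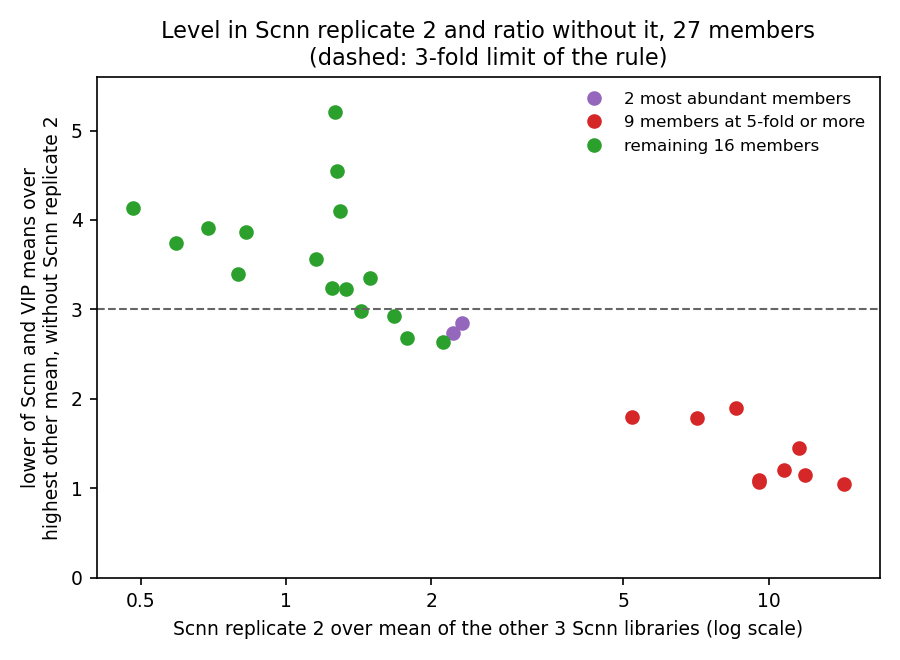
For each member, its level in Scnn replicate 2 relative to the mean of the other 3 Scnn libraries (log scale) against its ratio to the highest other mean without that library. The 9 members at 5.20 or more fall to ratios of 1.05 to 1.90, below the 3-fold limit (dashed), and 12 of the remaining 16 stay above it. A fall on the vertical axis follows in part from leaving out a library that is high on the horizontal axis.

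The 3 sets differed in how their summed level ran across libraries. The 9 members summed to 74.4, 1091, 139 and 124 CPM in Scnn replicates 1 to 4 and to 367, 455, 571 and 377 CPM in VIP replicates 1 to 4. They summed to 101, 117, 23.6 and 48.4 CPM in PV cortex, to 40.7 to 101 CPM in SST hippocampus and to 19.8 to 93.4 CPM in SST cortex. In the excitatory groups the sums were 17.1 to 20.7 CPM in Grik hippocampus, 23.6 to 31.0 CPM in CamK hippocampus and 33.8 to 72.3 CPM in CamK cortex. Scnn replicate 1 thus lay within the range of the PV and SST libraries and replicates 3 and 4 just above it. For 9 of 9 members these 3 Scnn libraries overlapped the 24 libraries of the other groups, a description with no share over all features beside it. The 4 VIP libraries lay above those 24.

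The same 9 members were also uneven in other groups. SST cortex replicate 2 was highest of its group for 9 of 9, VIP replicate 3 for 8 of 9, and SST hippocampus replicate 2 and CamK cortex replicate 3 for 7 of 9 each. In PV cortex replicates 2 and 1 were highest for 5 and 4. Of all features at 1 CPM or more in the 8 Scnn and VIP libraries, SST cortex replicate 2 was highest for 18.4% and VIP replicate 3 for 33.7%. The remaining 16 also had such libraries. Scnn replicate 2 was highest for 11 of 16 (14.7% of the same features), PV replicate 2 for 12 and SST cortex replicate 2 for 10. VIP replicate 3 was highest for 9 and SST hippocampus replicate 2 for 6. CamK cortex replicates 1 and 3 were highest for 5 each, close to their shares over the same features (30.5% and 31.0%). The part of these libraries in the results was not tested.

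The remaining 16 members summed to 65.0, 93.9, 88.7 and 89.0 CPM in Scnn replicates 1 to 4 and to 94.7 to 119.7 CPM in VIP cortex. Across the 24 libraries of the other groups their sum ran from 7.02 to 23.0 CPM. This sum did not overlap the other groups. Single members varied more: GSMG0029988, chosen after its values were seen, ran from 1.19 CPM in Scnn replicate 1 to 4.71 CPM in VIP replicate 3. For each of the 16, the Scnn libraries other than replicate 2 did not overlap the 24 libraries of the other groups. The rule used these levels and no share over all features is given for this comparison, so nothing is read from it. They were scarcer than the 9, with a median lower mean of 2.93 CPM against 17.0 CPM.

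**Figure D3:**
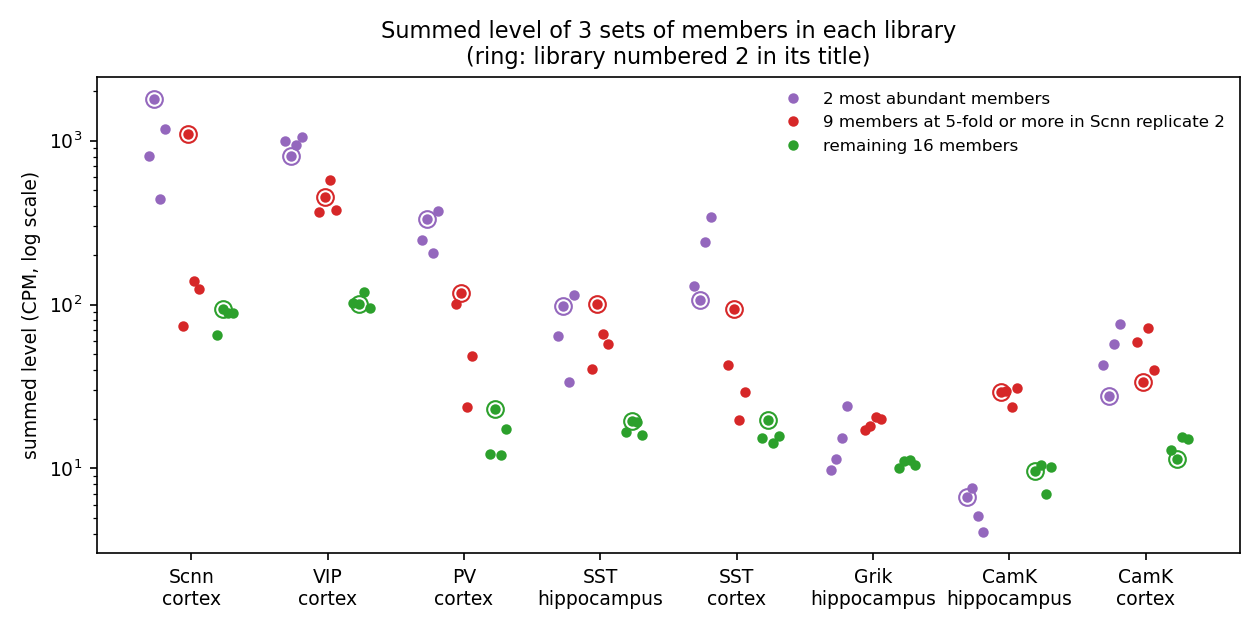
Summed level (CPM, log scale) in each library of the 2 most abundant members, the 9 members at 5-fold or more in Scnn replicate 2, and the remaining 16, with libraries numbered 2 ringed. The sum of the 9 is 1091 CPM in Scnn replicate 2 and 74.4 to 139 CPM in the other Scnn libraries, while the sum of the 16 stays between 65.0 and 119.7 CPM in all 8 Scnn and VIP libraries.

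The most abundant member, GSMG0002884, stood at 574, 1258, 293 and 833 CPM in Scnn replicates 1 to 4 and at 710.1, 558, 631 and 848 CPM in VIP replicates 1 to 4. It was at 191, 213, 161 and 263 CPM in PV cortex, at 36.3, 70.6, 18.6 and 85.0 CPM in SST hippocampus and at 95.1, 86.0, 167 and 245 CPM in SST cortex. It was at 6.27, 7.39, 10.7 and 17.7 CPM in Grik hippocampus, 4.33, 4.88, 3.73 and 3.18 CPM in CamK hippocampus and 33.7, 19.5, 49.6 and 61.0 CPM in CamK cortex. Scnn and VIP libraries did not overlap the rest, the PV and SST cortex libraries came next and overlapped each other, and the 8 Grik and CamK hippocampus libraries were lowest. Its group means were thus graded and spanned 739 CPM in Scnn cortex to 4.03 CPM in CamK hippocampus.

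GSMG0007305 had the same order of groups, with 229, 550.1, 146 and 338 CPM in Scnn replicates 1 to 4 and 285, 244, 304 and 208 CPM in VIP replicates 1 to 4. It had means of 83.4 ± 37.1 CPM in PV cortex, 25.04 ± 6.83 CPM in SST hippocampus and 56.4 ± 35.4 CPM in SST cortex (SD, n = 4 each). The means were 4.61 ± 1.26 CPM in Grik hippocampus and 1.85 ± 0.825 CPM in CamK hippocampus, and the 4 CamK cortex libraries lay at 8.08 to 14.9 CPM. In Scnn cortex replicates 2, 4, 1 and 3 followed in this order for both members. Without Scnn replicate 2 their ratios to the highest other mean were 2.73 and 2.85, just under the limit. Per 1000 of deposited length, taken as bases, the lower of the Scnn and VIP means was 409 CPM for GSMG0002884 and 28.1 CPM for GSMG0007305, so their levels differed more per length than per feature.

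The abundant pair that stood out in Scnn replicate 2 was also highest in Scnn and VIP cortex by mean. Its order among the other groups differed from that of these members. GSMG0038934 averaged 45167 CPM in Scnn and 31364 CPM in VIP cortex, and GSMG0023431 averaged 22010 and 19018 CPM. Neither met the rule. Their highest other mean was in SST hippocampus, at 17346 and 7590 CPM, which left ratios of 1.81 and 2.51, and GSMG0023431 at 6373 CPM in PV cortex was also less than 3-fold below its VIP mean.

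Of the members with the largest ratios, GSMG0038089 (5.50) and GSMG0001727 (5.30) both belonged to the 9. GSMG0001727 stood at 26.0, 482, 57.9 and 41.0 CPM in Scnn replicates 1 to 4 and at 119.8, 171, 232 and 129.8 CPM in VIP replicates 1 to 4. It was at 43.9, 47.2, 8.03 and 15.4 CPM in PV cortex and at 17.6, 37.3, 5.85 and 8.31 CPM in SST cortex. The VIP libraries lay above all libraries of the 6 other groups, while Scnn replicates 1 and 4 lay below the highest PV library, and the ratio without Scnn replicate 2 was 1.45. GSMG0038089 was at 4.16, 68.2, 9.27 and 10.5 CPM in Scnn and 21.8, 26.9, 31.2 and 21.8 CPM in VIP replicates 1 to 4, with a ratio of 1.90 without that library. The 2 largest ratios of the list thus rested on 1 library.

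Ratios that did not need Scnn replicate 2 were largest for GSMG0005235 (5.21) and GSMG0005529 (4.55), which were singled out after their values were seen. GSMG0005235 had 3.24, 7.22, 6.83 and 7.07 CPM in Scnn replicates 1 to 4 and 4.02, 5.53, 7.08 and 3.99 CPM in VIP replicates 1 to 4. Its highest library elsewhere was SST hippocampus replicate 2 at 1.34 CPM. GSMG0005529 averaged 2.99 ± 0.624 CPM in Scnn and 1.92 ± 0.458 CPM in VIP cortex, with means of 0.136 to 0.422 CPM in the other groups.

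Of the members, GSMG0035153, one of the remaining 16, differed most between PV and SST cortex. It stood at 9.94, 7.77, 15.1 and 14.3 CPM in Scnn replicates 1 to 4 and at 18.2, 15.2, 14.2 and 15.6 CPM in VIP replicates 1 to 4. It was at 0.220, 0.477, 0.163 and 0.370 CPM in PV cortex, at 1.85, 2.55, 3.34 and 3.95 CPM in SST hippocampus and at 3.27, 4.65, 2.52 and 3.57 CPM in SST cortex. Its means were 0.144 ± 0.0928 CPM in Grik hippocampus, 0.609 ± 0.188 CPM in CamK hippocampus and 1.16 ± 0.326 CPM in CamK cortex. PV libraries lay below all SST and CamK cortex libraries, so among the interneuron groups PV was lowest, SST came between and VIP was highest.

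**Figure D4:**
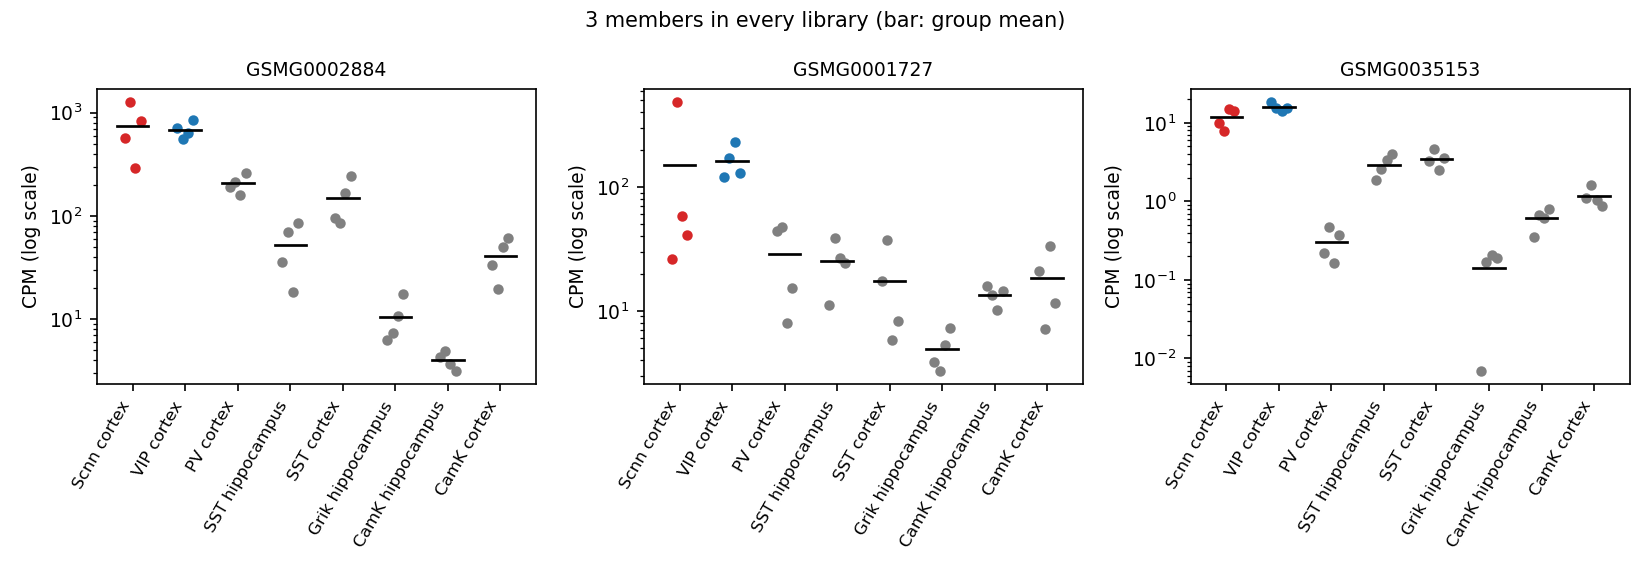
Level (CPM, log scale) of GSMG0002884, GSMG0001727 and GSMG0035153 in each of 4 libraries per group, with a bar at the group mean. GSMG0001727 shows 1 Scnn library at 482 CPM and the other 3 at 26.0 to 57.9 CPM, and GSMG0035153 is lower in PV cortex than in either SST group.

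Differences among the 6 other groups do not enter the rule as contrasts, although it caps each group's level, and they were tested. The test was edgeR's quasi-likelihood test over the whole table, adjusted by Benjamini-Hochberg. A call needed a change of 2-fold or more with an adjusted p below 0.05. All 27 members passed the filter on low counts, also with the 24 libraries of these 6 groups alone. The 6 comparisons share libraries with one another and are not independent. Backgrounds are those of the edgeR fit with all libraries. Counts in DESeq2, under other settings or at an unadjusted p have no background of their own and only describe.

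In the hippocampus the 27 members together leaned towards the SST interneurons, but the 12 kept without Scnn replicate 2 were near the background. Against CamK and Grik together, 15 of 27 members (55.6%) rose in SST hippocampus (background 16.9% of tested features) and 0 fell (background 10.1%). DESeq2 also gave 15 and 0, and no member had an unadjusted p under 0.05 in the lower direction. The median log2 fold change was 1.50 for the members and 0.09 for all features tested. Of the 9 members high in Scnn replicate 2, 8 rose, as did the most abundant 2 and 5 of the remaining 16. Of the 12 members kept without that library, 3 rose. Without SST hippocampus replicate 2, 11 of 27 rose.

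GSMG0035153 was higher in SST hippocampus, at 1.85 to 3.95 CPM, than in the 8 CamK and Grik libraries, at 0.00699 to 0.795 CPM, with no overlap. Its log2 fold change was 3.17 (SE 0.30, edgeR adjusted p = 1.34e-10). GSMG0043101, one of the 9, was at 1.82, 1.87, 2.54 and 1.84 CPM in SST hippocampus replicates 1, 2, 3 and 5. It had 0 counts in all 8 CamK and Grik hippocampus libraries (edgeR adjusted p = 0.000407). Against a floor of 3 counts per library, or 0.0285 CPM, its SST mean was at least 70.8-fold higher. With this feature at that bound the median of the members was still 1.50.

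In CamK neurons the members tended to be lower in the hippocampus. Of 27 members, 9 fell in CamK hippocampus relative to CamK cortex (33.3%, background 8.46%) and 0 rose (background 5.43%), in edgeR and with 10 and 0 in DESeq2. At an unadjusted p under 0.05 there were 12 lower and 0 higher. No share over all features is given at that threshold, so nothing is read from this count. The median log2 fold change was -0.97 for the members, also with GSMG0043101 at its bound, and -0.00 for all features. Of the 12 members kept without Scnn replicate 2, 4 fell (33.3%), and with a replicate block 5 of 27 did. Among the called members, GSMG0005235, GSMG0005529, GSMG0009442, GSMG0020329, GSMG0023557 and GSMG0043101 had means under 1 CPM in both groups. GSMG0002884 fell to 3.18 to 4.88 CPM in the hippocampus, against 19.5 to 61.0 CPM in the cortex (log2 fold change -3.39, SE 0.51, edgeR adjusted p = 7.8e-06). GSMG0007305 differed by -2.49 (SE 0.48, edgeR adjusted p = 0.0002), without overlap between the groups. With a replicate block it was no longer called (-1.81, adjusted p = 0.101, range over its alternatives 8.51e-08 to 0.101). Some sample titles carry a W, which the labels do not explain; hippocampal CamK titles do and cortical ones do not, so in this comparison the region cannot be told apart from the title series.

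SST neurons of the hippocampus and cortex were compared in the same way. Calls were too few here to be read as a result about the members. SST hippocampus was higher than SST cortex for 1 of 27 (3.70%, background 3.92%) and lower for 2 (7.41%, background 3.54%), with a median log2 fold change of 0.35 against 0.02 for all features. Without SST cortex replicate 2 there were 5 calls, 2 higher and 3 lower. GSMG0020329, chosen after its values were seen, was at 0.648, 1.07, 0.910 and 0.870 CPM in SST hippocampus and 0.0759, 0.300, 0.285 and 0.221 CPM in SST cortex. It rose by 1.97 (SE 0.37, edgeR adjusted p = 0.000179). GSMG0023557, likewise chosen after its values were seen, was at 0.159, 0.0183, 0 and 0.0350 CPM in SST hippocampus and 0.593, 0.469, 0.677 and 0.359 CPM in SST cortex. It fell by 3.07 on the log2 scale (SE 0.58, edgeR adjusted p = 0.000194). With a replicate block it was not called (-1.86, adjusted p = 0.106, range over its alternatives 1.98e-07 to 0.106).

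GSMG0002884 also passed in this comparison, with no overlap between SST hippocampus (18.6 to 85.0 CPM) and SST cortex (86.0 to 245 CPM), but narrowly (-1.48, SE 0.46, edgeR adjusted p = 0.0226). The call was lost without SST cortex replicate 4 (-1.14, adjusted p = 0.11), SST hippocampus replicate 1 (-1.34, adjusted p = 0.0749) or SST hippocampus replicate 3 (-1.20, adjusted p = 0.0829). It was also lost with a replicate block (-1.45, adjusted p = 0.221). Over all its alternatives the adjusted p ran from 0.0059 to 0.221. Here too the hippocampal titles carry the W.

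The regional difference itself was compared between SST and CamK neurons in the edgeR model, a comparison added after seeing the data. It was called higher in SST for 7 of 27 members (25.9%, background 6.4%) and lower for 0 (background 4.43%), also with 0 lower at an unadjusted p under 0.05.

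Within the hippocampal excitatory groups the members split. Grik was higher than CamK for 8 of 27 members (29.6%, background 6.99%) and lower for 3 (11.1%, background 6.4%), and 10 and 3 in DESeq2. The median log2 fold change was 0.12 for all 27. It was 0.26 over the 26 members left when GSMG0043101, at 0 counts in both groups, is set aside, and 0.02 over all features. Of the 12 kept without Scnn replicate 2, 5 were higher and 3 lower, and with a replicate block 5 and 3 of 27 were. The called members were the most abundant 2 and 9 of the remaining 16, of which 6 were higher and 3 lower.

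GSMG0002884 was at 6.27 to 17.7 CPM in Grik and 3.18 to 4.88 CPM in CamK hippocampus, without overlap (1.47 on the log2 scale, SE 0.49, edgeR adjusted p = 0.0211). The call was lost without CamK hippocampus replicate 5 (1.40, adjusted p = 0.0601), without Grik replicate 6 (1.08, adjusted p = 0.11) and with a replicate block (1.02, adjusted p = 0.162), in a range of 0.00373 to 0.162. GSMG0007305 was likewise narrow (1.41, SE 0.48, edgeR adjusted p = 0.0257). It was lost without CamK hippocampus replicate 4 (1.34, adjusted p = 0.0671), CamK replicate 5 (1.22, adjusted p = 0.0871) or Grik replicate 6 (1.20, adjusted p = 0.0837) and with a replicate block (1.27, adjusted p = 0.0906), in a range of 0.0041 to 0.0906.

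Values are also given for members lower in Grik. GSMG0023557 was at 0.00929, 0.0460, 0 and 0.0257 CPM in Grik and 0.227, 0.148, 0.0538 and 0.110 CPM in CamK hippocampus (-2.56 on the log2 scale, SE 0.75, edgeR adjusted p = 0.00838). GSMG0035153 fell to 0.00699 to 0.210 CPM in Grik, against 0.349 to 0.795 CPM in CamK (-1.99, SE 0.41, edgeR adjusted p = 0.000312). Neither was chosen by the fixed rule, since both lay under 1 CPM here, and neither lost its call under an alternative.

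Among cortical groups other than Scnn and VIP the counts of calls were small and are not read as a result about the members. PV was higher than SST cortex for 3 of 27 (11.1%, background 6.08%) and lower for 1 (3.70%, background 9.08%), although 25 of 27 estimates were above 0 and the median was 0.62 against 0.04 for all features. Without PV replicate 2 there were 1 higher and 1 lower. GSMG0035153 fell to 0.163 to 0.477 CPM in PV, against 2.52 to 4.65 CPM in SST (-3.47 on the log2 scale, SE 0.38, edgeR adjusted p = 6.42e-09). GSMG0020329 rose to 0.482 to 0.789 CPM in PV, against 0.0759 to 0.300 CPM in SST (1.60, SE 0.38, edgeR adjusted p = 0.000819). GSMG0017242, at 0.730, 1.32, 0.342 and 0.917 CPM in PV and 0.322, 0.569, 0.274 and 0.243 CPM in SST, overlapped between the groups (1.26, SE 0.38, edgeR adjusted p = 0.00806). It was not called without PV replicate 2 (adjusted p = 0.0505, range over its alternatives 0.00144 to 0.0505). These last 2 members were chosen after their values were seen.

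PV and SST cortex together were higher than CamK cortex for 5 of 27 members (18.5%, background 15%) and lower for 1 (3.70%, background 14.5%), with a median of 0.39 against 0.06. Of the 12 members kept without Scnn replicate 2, 1 was higher and 1 lower. GSMG0007305 rose to 19.9 to 121 CPM over the 8 PV and SST cortex libraries, against 8.08 to 14.9 CPM in CamK cortex (log2 fold change 2.66, SE 0.43, edgeR adjusted p = 7.99e-06). GSMG0002884 rose by 1.99 (SE 0.43, edgeR adjusted p = 0.000348), also without overlap. GSMG0005529, chosen after its values were seen, fell by 1.28 on the log2 scale (SE 0.46, edgeR adjusted p = 0.0181). It was not called without CamK cortex replicates 1 (-1.09), 3 (-1.19) or 4 (-1.02), without PV replicate 3 (-1.09) or with the 24 libraries alone (-1.26), in a range of adjusted p from 0.00454 to 0.0946.

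**Figure D5:**
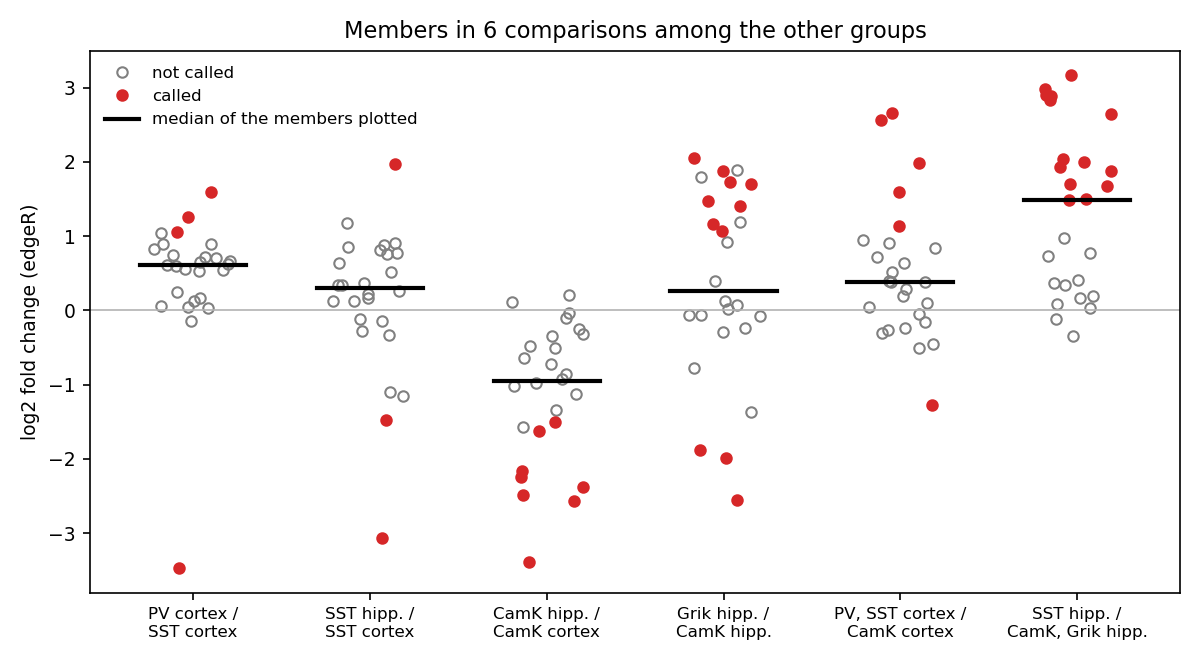
Log2 fold change of the members in 6 comparisons among the other groups, first group over second, with called members filled and a bar at the median. Each column holds 26 members, since GSMG0043101, at 0 counts in CamK and Grik hippocampus, is left out. The calls plotted lie above 0 for SST over CamK and Grik hippocampus, and below 0 for CamK hippocampus over CamK cortex.

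The contrasts that the rule used are given for completeness. Scnn was called higher than CamK cortex for 26 of 27 members (background 13.7%), and for 22 without Scnn replicate 2, and lower for 0 (background 5.94%). VIP was called higher than PV and SST cortex for 27 of 27 (background 22.6%) and lower for 0 (background 6.14%). In both contrasts 0 members were lower in DESeq2 and 0 at an unadjusted p under 0.05. Between Scnn and VIP cortex, which the rule holds within 2-fold, 0 members were called higher (background 7.56%) or lower (background 10.5%) in edgeR, 0 in DESeq2 and 0 at an unadjusted p under 0.05. Without Scnn replicate 2, 7 members were called lower in Scnn than in VIP, and with a replicate block 2 were. No background is given for either fit. Without Scnn replicate 2 the Scnn mean was 0.153 to 0.322 times the VIP mean for the 9 members, 0.825 to 0.914 times for the most abundant 2 and a median of 0.825 times for the remaining 16. The 9 were set apart by their level in that library, so a lower Scnn mean without it follows from that choice. Nothing is read from these calls.

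Members were on the longer side. The deposited length had a median of 2881 over the 27 members (range 635 to 18210), against 1639 over the features tested and 1459 over the features at 1 CPM or more in all 8 Scnn and VIP libraries. The 9 members high in Scnn replicate 2 had a median length of 6147 and the remaining 16 one of 2373. These are descriptions without a test.

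The same rule was applied to the other pairs of groups. Of the 28 pairs, SST cortex with SST hippocampus gave the most features, 39, followed by Scnn with CamK cortex (29), and by CamK with Grik hippocampus and Scnn with VIP cortex (27 each). Each of the other pairs gave at most 8. Scnn and VIP cortex differ in labelled population and in title series, since only VIP titles carry the W, whereas each of the other 3 pairs shares a population label, or a region and a title series. Without Scnn replicate 2 the count for Scnn and VIP cortex was 12, and without Scnn replicate 1 it was 49.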

How the data were processed

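Per the labels' protocols, an RNeasy Plus Micro kit served to isolate ribosome-associated RNA, and a stranded kit that selects polyadenylated RNA gave the libraries. Per the submitters' processing notes, which give no roles or order, processing involved GRCm38, featureCounts, SAMtools, Picard and FastQC. The aligner, annotation, counting mode and use of strand are not given in the sources used, which leaves overlapping features and near-identical copies uncertain. The authors deposited expected counts per feature (20.1% of values above 0 whole within 1e-06), with a length per feature from the authors. Another 12 columns of per-sample values match no sample and were not used.

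CPM for levels and for the rule used column totals. For tests, counts were rounded, kept by filterByExpr (24555 features, 43.5%), TMM-scaled and fitted with edgeR 4.0.16 (R 4.3.3) in 1 robust quasi-likelihood model of 32 libraries with 24 residual degrees of freedom. The code was tested on simulated data. A standard error is the log2 fold change over the square root of F. Alternatives were DESeq2 1.42.0, other filters, no fold threshold, a replicate block, the 24 libraries of the 6 other groups, and leaving out each library. Counting over members kept without Scnn replicate 2, and comparing the regional difference between SST and CamK neurons, were added after seeing the data.

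The members and lists were chosen with earlier results of these data known. Named features were fixed as the 2 most abundant members, the 2 with the largest ratio where the highest other mean was at least 0.1 CPM, and the nearest to the 3-fold limit. In each of the 6 comparisons they were the 2 largest changes each way among called members with at least 1 CPM on the higher side and no overlap. Others are named as chosen after their values were seen. Marker genes could not be looked up.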

Additional observations from a re-analysis of the deposited data

Results flagged for a closer look

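Among the named members, single libraries stood far from the other 3 of their group by a gap test that chance passes in about 1 of 20 groups. With 96 such tests on named members and summed levels, the 6 values below are close to the number that chance gives in independent tests. These tests share libraries and are not independent, so the count does not bear on any single library. In Scnn cortex replicate 2, GSMG0038089 was at 68.2 CPM (others 4.16 to 10.5), GSMG0001727 at 482 CPM (others 26.0 to 57.9) and GSMG0043101 at 20.6 CPM (others 1.27 to 3.22). In Scnn cortex replicate 1, GSMG0005235 was low at 3.24 CPM (others 6.83 to 7.22). GSMG0007305 was at 14.9 CPM in CamK cortex replicate 4 (others 8.08 to 8.90), and GSMG0043101 at 2.54 CPM in SST hippocampus replicate 3 (others 1.82 to 1.87).

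The difference between hippocampus and cortex was not the same in SST and in CamK neurons for 4 named members, by a test of the difference itself in the edgeR model. GSMG0020329 differed by 1.97 in SST and -2.57 in CamK, a difference of 4.55 (SE 0.57, edgeR adjusted p = 2.42e-07). For GSMG0005235 the values were 0.35 and -1.63, a difference of 1.98 (SE 0.56, edgeR adjusted p = 0.00929). For GSMG0002884 they were -1.48 and -3.39, a difference of 1.91 (SE 0.66, edgeR adjusted p = 0.0375). For GSMG0043101 the fitted difference of 10.66 (edgeR adjusted p = 0.0371) rests on 0 counts in CamK hippocampus and is no estimate of size.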

How the results depend on the processing

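The number of members, 27, became 137 at a fold of 2, 9 at a fold of 4, 489 with no floor on single libraries and 17 with group medians. It was 24 with TMM scaling (22 shared), and 36 either without the abundant pair in the totals or without the limit on the Scnn to VIP ratio. Leaving out 1 library gave 12 to 49.

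Same-numbered libraries of a title series did not deviate together (correlations -0.0527 to 0.125 over 40 pairs), so a number was not taken to pair samples. Over the members alone, replicate 2 was highest of its group for 22 of 27 in Scnn cortex and 18 in PV cortex. It was highest for 19 in SST cortex and 13 in SST hippocampus, which these correlations over all features do not show. Of all features at 1 CPM or more in the 8 Scnn and VIP libraries, it was highest for 14.7%, 24.99%, 18.4% and 18.01%. Other groups went the other way. Replicate 2 was highest for 2 of 27 members in VIP cortex (7.41% against 28.6%) and 2 of 27 in CamK cortex (7.41% against 18.995%). In CamK hippocampus it was highest for 7 of the 26 members above 0 (26.9% against 32.4%). With a replicate block the calls became 1 for SST hippocampus against SST cortex, 5 for CamK hippocampus against CamK cortex and 2 for Scnn against VIP cortex. Grik hippocampus replicate 6 is alone in its block and adds nothing there. Leaving out 1 library gave 2 to 5 calls for PV against SST cortex, 2 to 5 for SST hippocampus against SST cortex, 6 to 8 for CamK hippocampus against CamK cortex, 8 to 11 for Grik against CamK hippocampus, 4 to 7 for PV and SST against CamK cortex and 11 to 16 for SST against CamK and Grik hippocampus. It gave 22 to 26 for Scnn against CamK cortex, 27 for VIP against PV and SST cortex and 0 to 7 for Scnn against VIP cortex. Counted over the 12 members kept without Scnn replicate 2, calls were 4 for CamK hippocampus against CamK cortex, 2 for PV and SST against CamK cortex and 3 for SST against CamK and Grik hippocampus. The cause of these shifts was not tested, beyond fewer members being counted.

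For 17 results on named members, 222 of 241 alternatives kept direction and call, 19 kept the direction and lost the call, and none reversed. Levels under 1 CPM limit what can be told outside Scnn and VIP cortex. In 11 members all 6 other means were under 1 CPM. Only 7 members reached a mean of 1 CPM in CamK hippocampus, 10 in Grik hippocampus and 12 in CamK cortex.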
